A study of Mus musculus with 18 samples.

Results

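The genes described here are 36 genes of protein folding in mouse bone marrow-derived basophils: the sensors, chaperones and degradation factors of the endoplasmic reticulum (ER), and the heat shock factor, chaperones and cochaperones of the cytosol and mitochondria. They were chosen by gene symbol, with no measured value entering the rule but with earlier results of these data known. All 36 were found among the 56413 genes of the deposited count table. Of these, 35 were abundant enough to test (Hspb1 was not), out of 14076 genes tested in all. The study asked how the lack of tristetraprolin (TTP, an RNA-binding protein encoded by Zfp36 that promotes decay of AU-rich messenger RNAs) changes gene expression when antigen and IgE stimulate basophils.

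Bone marrow cells of TTP-KO or wild-type (WT) mice grew for 7 days in medium with 0.3 ng/mL interleukin-3, and on day 6 received IgE specific for the hapten TNP at 1 µg/mL. Cells carrying CD49b were then enriched on magnetic beads, so the samples are an enriched culture rather than a sorted population. Samples of 50000 cells of each genotype were given plain ovalbumin (control OVA) for 2 h, or TNP-coupled ovalbumin (TNP-OVA) for 2 h or 4 h, all at 10 ng/mL. Only the hapten lets ovalbumin cross-link the IgE on the cells. Each of the 6 groups has 3 polyA RNA libraries, 18 in all: TTP-KO and WT with control OVA, with TNP-OVA for 2 h and with TNP-OVA for 4 h. None of the 18 libraries is a control OVA sample at 4 h, so in the 4 h comparisons with control the antigen and the longer incubation cannot be told apart.

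The ER folds and quality-checks secreted and membrane proteins, and when unfolded chains build up there the unfolded protein response begins. Its sensors are the kinase and ribonuclease IRE1α (Ern1), which splices Xbp1 messenger RNA into the form that encodes an active transcription factor, ATF6, which is cut by Golgi proteases to release a transcription factor, and the kinase PERK. Their targets are ER chaperones, disulfide isomerases and the machinery that returns misfolded proteins to the cytosol for degradation. In the cytosol the transcription factor HSF1 plays the corresponding part, raising Hsp70, Hsp90 and their partners after heat or other proteotoxic stress. Counts per gene measure neither Xbp1 splicing nor ATF6 cleavage.

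Library totals lay between 5516580 and 12733172 estimated counts, and the 36 genes together took between 0.532% and 0.636% of a library. Values below are library-size-adjusted counts (CPM) on edgeR's TMM scaling (trimmed mean of M values), given as replicates 1, 2 and 3 of a group. The ± beside a log2 fold change is its standard error, and adjusted p-values are from edgeR's quasi-likelihood test with Benjamini-Hochberg adjustment over all 14076 genes, with a threshold of 0.05. Whether a group's libraries stand for separate animals or cultures is not in the labels, so the p-values cover only the spread among these libraries, possibly technical. No decrease of Zfp36 RNA in TTP-KO cells passed in any condition. It averaged 224 CPM in TTP-KO and 237 CPM in WT controls, 564 and 448 CPM after 2 h and 324 and 295 CPM after 4 h, in the same order of genotypes. At 2 h it was higher in TTP-KO cells (log2 difference 0.33 ± 0.05, edgeR adjusted p = 0.000316), and the difference between the genotypes' responses at 2 h also passed (0.41 ± 0.08, adjusted p = 0.0249). The labels do not describe the allele, so Zfp36 RNA gives no check of them, and directions between genotypes rest on the labels. All 10 of the basophil markers listed were expressed, with a summed level between 22540 and 30770 CPM. In bulk samples, fewer cells of a type and less RNA per cell cannot be told apart.

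After 2 h of TNP-OVA, 15 of the 35 tested genes were higher than control and 0 were lower in TTP-KO cells, and 16 were higher and 2 lower in WT cells. Over all 14076 genes, 34.5% of genes passed the threshold in this comparison in TTP-KO cells (17.8% higher, 16.6% lower) and 35.1% in WT cells (17.8% higher, 17.3% lower). After 4 h, 22 genes were higher and 4 lower than control in TTP-KO cells, beside 35.0% of all genes (18.3% higher, 16.7% lower), and 21 were higher and 4 lower in WT cells, beside 38.0% (19.6% higher, 18.4% lower). The median log2 fold change of the 35 genes was 0.161 in TTP-KO and 0.158 in WT cells at 2 h, beside -0.029 and -0.047 over all genes tested. At 4 h it was 0.234 in TTP-KO and 0.300 in WT cells, beside 0.011 and -0.007 over all genes tested.

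The split into higher and lower depends on how libraries are scaled. TMM factors were 0.872 to 0.897 in the 2 h libraries and 1.09 to 1.13 in the controls, so the 2 scalings differ most in comparisons with the 2 h libraries. With library totals in place of TMM, 3 genes were higher and 17 lower at 2 h in TTP-KO cells, and 6 were higher and 13 lower in WT cells. At 4 h the split was 11 higher and 9 lower in TTP-KO cells and 16 higher and 6 lower in WT cells. Library totals placed the median of all genes at -0.365 (TTP-KO) and -0.372 (WT) on the log2 scale at 2 h, and at -0.123 and -0.132 at 4 h. Under that scaling Hspa5, Hspa4 and Dnaja1 kept their increase at 2 h in TTP-KO cells, and Ern1, Hspa5, Sel1l, Hspa4, Dnaja1 and Dnajb1 kept theirs in WT cells. At 4 h against control library totals ended 11 calls in TTP-KO cells (Ern1, Atf6, Hspa5, Hyou1, Dnajb11, Creld2, Pdia6, Edem1, Sel1l, Syvn1 and Dnajb1) and 5 in WT cells (Hspa5, Manf, Edem1, Sel1l and Syvn1). All folds below are therefore relative to the bulk of the genes, which TMM sets near 0. Turns with library totals are given only for calls that passed with TMM. A direction said to turn lay on the other side of 0 with library totals. Such an opposite value passed only at 2 h, for Xbp1, Pdia6 and Hspa8 in TTP-KO and Manf in WT cells.

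**Figure D1:**
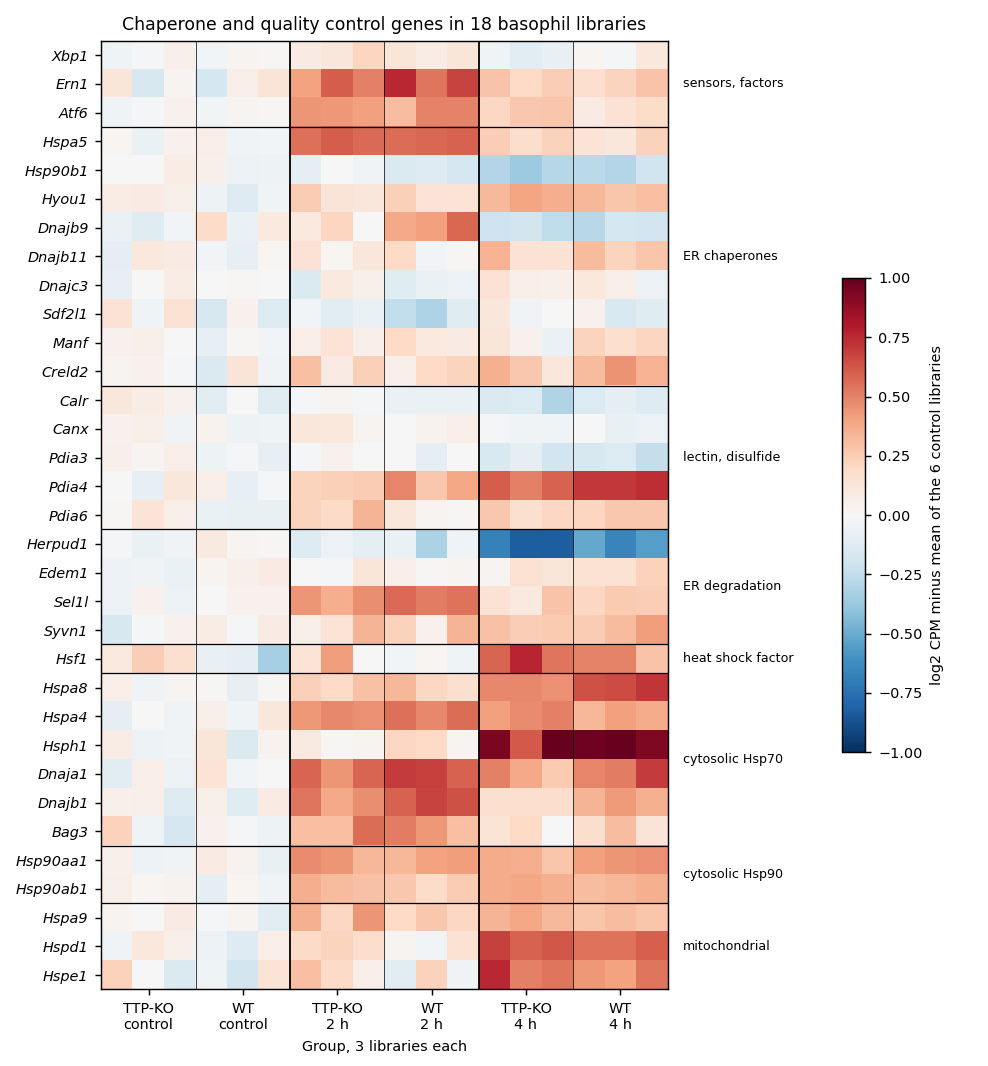
Level of 33 genes (rows, by role) in each of the 18 libraries (columns) as log2 CPM minus the mean of the 6 control libraries, on a colour scale that ends at -1 and 1. Ern1, Atf6, Hspa5, Sel1l, Dnaja1 and Dnajb1 are on average redder at 2 h than at 4 h. Hsph1, Hspd1, Hspe1, Hsf1, Hspa8 and Pdia4 are redder at 4 h than at 2 h, while Herpud1 is blue at 4 h. Hspa1a, Hspa1b and Hspb1, at low counts, are not drawn.

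Among the sensors, Ern1 and Atf6 were higher after 2 h of antigen in both genotypes, and Xbp1 moved little. Ern1 had 42.5, 35.0 and 39.9 CPM in control, 51.7, 59.6 and 55.4 CPM at 2 h, and 47.8, 44.9 and 46.4 CPM at 4 h in TTP-KO cells. WT cells had 34.6, 41.0 and 42.8 CPM in control, 66.2, 56.7 and 62.7 CPM at 2 h, and 44.0, 45.6 and 47.8 CPM at 4 h. All 2 h libraries lay above all controls in both genotypes, and the 4 h libraries lay between them. The log2 fold change of Ern1 at 2 h was 0.51 ± 0.09 in TTP-KO (adjusted p = 4e-05) and 0.65 ± 0.09 in WT cells (adjusted p = 1.06e-06), and at 4 h 0.25 ± 0.09 (adjusted p = 0.0291) and 0.21 ± 0.09 (adjusted p = 0.0584). Ern1 was lower at 4 h than at 2 h, with a log2 fold change of -0.26 ± 0.09 in TTP-KO (adjusted p = 0.0254) and -0.43 ± 0.09 in WT cells (adjusted p = 0.000284).

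Atf6 had 54.3, 55.4 and 57.7 CPM in control, 75.8, 75.4 and 74.5 CPM at 2 h, and 64.5, 67.3 and 68.0 CPM at 4 h in TTP-KO cells. The WT libraries had 54.8, 57.1 and 56.5 CPM in control, 69.3, 79.1 and 78.9 CPM at 2 h, and 59.4, 61.8 and 63.5 CPM at 4 h. As with Ern1, the 2 h libraries stood above the controls without overlap in both genotypes. Its log2 fold change at 2 h was 0.43 ± 0.07 in TTP-KO (adjusted p = 4.3e-06) and 0.44 ± 0.07 in WT cells (adjusted p = 3.72e-06). At 4 h it was 0.25 ± 0.06 in TTP-KO (adjusted p = 0.0026) and 0.13 ± 0.06 in WT cells, which did not pass (adjusted p = 0.106). Between 4 h and 2 h it was -0.18 ± 0.06 in TTP-KO (adjusted p = 0.0355) and -0.30 ± 0.06 in WT cells (adjusted p = 0.000498), and with library totals the TTP-KO direction turned and the WT call ended (adjusted p = 0.207).

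Xbp1 had 294, 299 and 313 CPM in control, 319, 326 and 350.4 CPM at 2 h, and 294, 279 and 287 CPM at 4 h in TTP-KO cells. In WT it stood at 296, 307 and 304 CPM in control, 328, 318 and 328 CPM at 2 h, and 306, 299 and 324 CPM at 4 h. Its changes were small beside those of Ern1 and Atf6. In TTP-KO cells it was higher at 2 h than in control by 0.14 ± 0.04 (adjusted p = 0.0169), a direction that turned with library totals, and lower at 4 h than at 2 h (-0.21 ± 0.04, adjusted p = 0.000474), a call that library totals ended (adjusted p = 0.885). In WT cells the change at 2 h was 0.10 ± 0.04 and did not pass (adjusted p = 0.0725).

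Several of these calls did not hold when a library was left out. The Xbp1 call at 2 h in TTP-KO cells ended without TTP-KO control replicate 1 (adjusted p = 0.101), TTP-KO control replicate 2 (0.075) or TTP-KO 2 h replicate 3 (0.158). The Ern1 call at 4 h in TTP-KO cells ended without TTP-KO control replicate 2 (adjusted p = 0.183), TTP-KO 4 h replicate 1 (0.0953) or TTP-KO 4 h replicate 3 (0.0595), and its call between 4 h and 2 h without TTP-KO 2 h replicate 2 (adjusted p = 0.117), TTP-KO 4 h replicate 2 (0.0816) or TTP-KO 4 h replicate 3 (0.0606). The Atf6 call between 4 h and 2 h in TTP-KO cells ended whichever of the 6 libraries was left out (adjusted p from 0.0556 to 0.134). Library totals ended the 2 h calls of Atf6 in both genotypes and of Ern1 in TTP-KO cells, the 4 h calls of Ern1 and Atf6 in TTP-KO cells, and the Ern1 call between 4 h and 2 h in TTP-KO cells.

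Hspa5, which encodes BiP, the main Hsp70 chaperone of the ER and the protein that holds the sensors inactive, was higher at 2 h by nearly the same amount in both genotypes. It had 409, 384 and 414 CPM in control, 588, 611 and 597 CPM at 2 h, and 476, 453 and 473 CPM at 4 h in TTP-KO cells. In WT cells it had 421, 392 and 395 CPM in control, 593, 597 and 604 CPM at 2 h, and 443, 436 and 472 CPM at 4 h. No 2 h library overlapped a control, and the 4 h libraries lay between. On the log2 scale its fold change at 2 h was 0.57 ± 0.04 in TTP-KO (adjusted p = 3.99e-12) and 0.57 ± 0.04 in WT cells (adjusted p = 4.26e-12). At 4 h it was 0.22 ± 0.04 (adjusted p = 0.00013) and 0.16 ± 0.04 (adjusted p = 0.00275), which library totals ended in both genotypes. The 4 h level set against 2 h gave -0.36 ± 0.04 in TTP-KO (adjusted p = 9.77e-08) and -0.41 ± 0.04 in WT cells (adjusted p = 7.46e-09).

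The promoter of Hspa5 is the textbook home of the ER stress response element (ERSE), the sequence to which ATF6 binds together with the factor NF-Y. It is shown with the promoters of 4 other members that hold the same letters, because these 5 genes did not move alike. RefSeq promoters (GRCm38.p6, 250 bases before to 50 after each start) were found for 28 of the 36 genes, and Atf6, Hyou1, Manf, Hsf1, Hspa8, Hsp90aa1, Hsp90ab1 and Hspa9 were not among them. Each line runs 5′ to 3′ on the gene's own strand. Capitals mark the fixed letters of an ERSE (CCAAT and CCACG with 9 bases between them) or of its reverse complement. The windows are Hspa5 at chr2:34771940-34772089 (plus strand), Hsp90b1 at chr10:86705515-86705674 (minus strand), Creld2 at chr15:88819496-88819645 (plus strand), Pdia6 at chr12:17266439-17266542 (plus strand) and Calr at chr8:84846962-84847111 (minus strand), all upstream of the start. They were picked with the genes' responses known.
Hspa5: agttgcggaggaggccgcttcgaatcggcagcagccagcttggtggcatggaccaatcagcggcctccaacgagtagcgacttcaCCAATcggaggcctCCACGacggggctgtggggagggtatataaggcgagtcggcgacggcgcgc
Hsp90b1: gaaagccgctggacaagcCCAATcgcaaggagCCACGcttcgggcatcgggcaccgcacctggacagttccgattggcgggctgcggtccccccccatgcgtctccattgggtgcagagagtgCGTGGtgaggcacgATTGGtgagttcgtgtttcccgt
Creld2: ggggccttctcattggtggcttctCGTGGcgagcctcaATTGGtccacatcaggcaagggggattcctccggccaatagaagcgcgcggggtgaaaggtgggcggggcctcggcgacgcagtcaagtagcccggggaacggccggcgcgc
Pdia6: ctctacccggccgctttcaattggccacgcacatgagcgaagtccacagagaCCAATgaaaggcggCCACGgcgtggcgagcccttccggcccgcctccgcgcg
Calr: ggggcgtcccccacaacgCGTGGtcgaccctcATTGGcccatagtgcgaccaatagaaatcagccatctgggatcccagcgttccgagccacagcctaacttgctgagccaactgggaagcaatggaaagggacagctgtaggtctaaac

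An ERSE was found in 8 of the 28 genes with a promoter (28.6%): Hspa5, Hsp90b1 (with 2 copies), Dnajc3, Creld2, Calr, Canx, Pdia6 and Syvn1. Of all 27025 mouse genes with a RefSeq promoter of the same length, 0.137% held one. The ERSE in Hspa5 ran from 65 to 47 bases before the start, and those in Hsp90b1 from 212 to 194 and from 107 to 89. At 4 h in TTP-KO cells Hspa5, Creld2, Pdia6 and Syvn1 were higher than control, Hsp90b1 and Calr were lower, and Dnajc3 and Canx did not pass. In WT cells the same 4 were higher, Hsp90b1 was lower, and Calr, Dnajc3 and Canx did not pass. Neither the unfolded protein response element TGACGTGG nor the cyclic AMP response element TGACGTCA was found in any of the 28, beside 0.714% and 2.03% of all genes with a promoter. A match of letters is not a binding site, and no match says only that these letters are not in this window.

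Hsp90b1, the ER form of Hsp90 (GRP94), went the other way from Hspa5. Its change in log2 units at 4 h was -0.33 ± 0.04 in TTP-KO (adjusted p = 2.65e-07) and -0.23 ± 0.04 in WT cells (adjusted p = 4.79e-05). At 2 h it was -0.06 ± 0.04 in TTP-KO (adjusted p = 0.278) and -0.13 ± 0.04 in WT cells (adjusted p = 0.0187), and this WT call ended without WT control replicate 1 (adjusted p = 0.122), WT 2 h replicate 1 (0.0594) or WT 2 h replicate 3 (0.0739) and also with RLE scaling (adjusted p = 0.0554) and DESeq2. Hyou1, the nucleotide exchange factor of BiP, was higher at 4 h in TTP-KO (0.29 ± 0.07, adjusted p = 0.00115) and WT cells (0.37 ± 0.07, adjusted p = 5.6e-05), and library totals ended the TTP-KO call (adjusted p = 0.0847). Its 2 h increase passed in WT cells (0.24 ± 0.07, adjusted p = 0.00848) and turned round with library totals. Its call between 4 h and 2 h in TTP-KO cells ended without TTP-KO 2 h replicate 2 (adjusted p = 0.124), TTP-KO 2 h replicate 3 (0.13), TTP-KO 4 h replicate 2 (0.0875) or TTP-KO 4 h replicate 3 (0.0679).

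Dnajb9 (ERdj4), a J-domain cochaperone that binds BiP and IRE1α, was 1 of the 2 ER genes that differed between the genotypes at 2 h. It had 47.3, 45.4 and 48.6 CPM in control, 53.0, 57.3 and 49.3 CPM at 2 h, and 42.8, 43.5 and 41.6 CPM at 4 h in TTP-KO cells. WT cells had 56.3, 47.2 and 53.1 CPM in control, 64.5, 65.8 and 73.6 CPM at 2 h, and 40.8, 43.9 and 43.2 CPM at 4 h. In both genotypes the 2 h libraries stood above all controls and the 4 h libraries below them, with the groups closer together in TTP-KO cells. The log2 fold change at 2 h was 0.18 ± 0.08 in TTP-KO (adjusted p = 0.0899) and 0.38 ± 0.08 in WT cells (adjusted p = 0.000309), and at 4 h -0.14 ± 0.08 (adjusted p = 0.17) and -0.30 ± 0.08 (adjusted p = 0.00332). Between 4 h and 2 h it was -0.32 ± 0.08 in TTP-KO (adjusted p = 0.00263) and -0.67 ± 0.08 in WT cells (adjusted p = 8e-08). Library totals ended its WT call at 2 h and its TTP-KO call between 4 h and 2 h.

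The other ER chaperone genes moved less. Dnajb11 (ERdj3), another BiP cochaperone, was higher at 4 h in TTP-KO (0.18 ± 0.07, adjusted p = 0.0331) and WT cells (0.30 ± 0.07, adjusted p = 0.000585). The TTP-KO call ended without TTP-KO control replicate 1 (adjusted p = 0.212) or TTP-KO 4 h replicate 1 (0.259) and with library totals (adjusted p = 0.627), and the WT call between 4 h and 2 h without WT 2 h replicate 2 (adjusted p = 0.124), WT 2 h replicate 3 (0.117) or WT 4 h replicate 1 (0.0676). Creld2, an ER protein with disulfide isomerase activity, was higher at 4 h in TTP-KO (0.23 ± 0.09, adjusted p = 0.0344) and WT cells (0.39 ± 0.09, adjusted p = 0.000518), and its TTP-KO call ended without any 1 of 5 of the 6 libraries, the exception being TTP-KO TNP-OVA 4 h replicate 3 (highest adjusted p = 0.18, without TTP-KO TNP-OVA 4 h replicate 1), and with library totals (0.396). Manf, a secreted ER-resident factor that binds BiP, was higher in WT cells at 2 h (0.16 ± 0.05, adjusted p = 0.0212, turned round with library totals) and 4 h (0.23 ± 0.05, adjusted p = 0.000678, ended by library totals), while its log2 fold changes in TTP-KO cells were 0.05 ± 0.05 and 0.00 ± 0.05 (adjusted p = 0.467 and 0.962). The WT call at 2 h ended without WT control replicate 1 (adjusted p = 0.0949) or WT 2 h replicate 1 (0.0898). Dnajc3 (p58IPK, an inhibitor of PERK) and Sdf2l1 passed in none of the 6 comparisons of conditions, with log2 fold changes between -0.16 and 0.15.

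Among the lectin chaperones and disulfide isomerases, Pdia4 (ERp72) was the gene that changed most. It had 79.6, 75.3 and 86.6 CPM in control, 93.2, 94.1 and 95.4 CPM at 2 h, and 122, 114 and 120.0 CPM at 4 h in TTP-KO cells. The WT libraries had 83.7, 75.6 and 79.3 CPM in control, 112, 96.5 and 105 CPM at 2 h, and 130.5, 130.2 and 133 CPM at 4 h. In both genotypes the 3 conditions did not overlap, with 2 h above control and 4 h above 2 h. Its log2 fold change at 4 h was 0.56 ± 0.06 in TTP-KO (adjusted p = 1.91e-08) and 0.72 ± 0.06 in WT cells (adjusted p = 8.95e-11). At 2 h it was 0.23 ± 0.06 in TTP-KO (adjusted p = 0.0052), which turned round with library totals and ended without TTP-KO control replicate 2 (adjusted p = 0.0615), and 0.39 ± 0.06 in WT cells (adjusted p = 1.01e-05), which library totals ended.

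Pdia6 (P5), another disulfide isomerase and a regulator of IRE1α, had 125, 136 and 129.8 CPM in control, 144, 142 and 156 CPM at 2 h, and 149, 138 and 143 CPM at 4 h in TTP-KO cells. In WT it stood at 118, 118 and 118 CPM in control, 134, 126 and 125 CPM at 2 h, and 144, 149 and 149 CPM at 4 h. In WT cells the 4 h libraries stood above all others, and in TTP-KO cells the 2 h and 4 h libraries overlapped each other. On the log2 scale its fold change at 2 h was 0.18 ± 0.05 in TTP-KO (adjusted p = 0.00896, turned round with library totals) and 0.12 ± 0.05 in WT cells (adjusted p = 0.0802), and at 4 h 0.14 ± 0.05 (adjusted p = 0.036) and 0.32 ± 0.05 (adjusted p = 1.03e-05). In TTP-KO cells the call at 2 h ended without TTP-KO control replicate 1 (adjusted p = 0.073) or TTP-KO 2 h replicate 3 (0.0884), and that at 4 h without TTP-KO control replicate 1 (adjusted p = 0.165), TTP-KO control replicate 3 (0.0904), TTP-KO 4 h replicate 1 (0.152) or TTP-KO 4 h replicate 3 (0.066), with DESeq2 and with library totals.

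The lectin chaperone gene Calr (calreticulin) and Pdia3 (ERp57), the isomerase that works with it, were lower at 4 h. Calr changed by -0.27 ± 0.04 in TTP-KO (adjusted p = 9.81e-06) and by -0.05 ± 0.04 in WT cells, which did not pass (adjusted p = 0.411). Pdia3 changed by -0.20 ± 0.04 in TTP-KO (adjusted p = 0.000297) and by -0.13 ± 0.04 in WT cells (adjusted p = 0.011). The WT call of Pdia3 ended without WT control replicate 2 (adjusted p = 0.0523) or WT 4 h replicate 3 (0.0863), and its WT call between 4 h and 2 h without WT 4 h replicate 3 (adjusted p = 0.0525). Between 4 h and 2 h the directions of Pdia3 in both genotypes and of Calr in TTP-KO cells turned with library totals. Canx (calnexin), the membrane-bound lectin chaperone, passed in no comparison of conditions, with log2 fold changes from -0.11 to 0.06.

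Herpud1, an ER membrane protein that helps gather the degradation machinery and a known target of the unfolded protein response, had the largest decrease at 4 h among those of the 35 that passed, in both genotypes. It had 113, 109 and 112 CPM in control, 105, 110.0 and 108 CPM at 2 h, and 72.0, 64.9 and 64.6 CPM at 4 h in TTP-KO cells. In WT cells it had 122, 117 and 116 CPM in control, 109.7, 91.9 and 111 CPM at 2 h, and 80.6, 72.7 and 78.3 CPM at 4 h. All 4 h libraries lay below all control and 2 h libraries of their genotype. Its change in log2 units at 4 h was -0.73 ± 0.07 in TTP-KO (adjusted p = 5.17e-10) and -0.61 ± 0.06 in WT cells (adjusted p = 8.74e-09). At 2 h it was -0.05 ± 0.07 in TTP-KO (adjusted p = 0.62) and -0.18 ± 0.07 in WT cells (adjusted p = 0.0321), and this WT call ended without WT control replicate 1 (adjusted p = 0.106), WT control replicate 2 (0.0541) or WT 2 h replicate 2 (0.284) and with RLE scaling and DESeq2. Its promoter is shown because it is 1 of 2 among the 28 with the shorter element ERSE-II (ATTGG and CCACG with 1 base between them), whose fixed letters are in capitals. The window is chr8:94386329-94386428 (plus strand, GRCm38.p6, RefSeq), and the element lies from 52 to 42 bases before the start.
Herpud1: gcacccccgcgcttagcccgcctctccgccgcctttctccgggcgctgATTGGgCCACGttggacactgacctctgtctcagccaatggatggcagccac

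The other ERSE-II was in Dnajb11, after its start, and the share over all genes with a promoter was 0.0444%. Dnajb11 and Herpud1 moved in opposite directions at 4 h in both genotypes. Sel1l, the adaptor of the ubiquitin ligase that clears misfolded ER proteins, was higher at 2 h by 0.45 ± 0.06 in TTP-KO (adjusted p = 2.17e-07) and 0.51 ± 0.06 in WT cells (adjusted p = 1.71e-08). It was still higher at 4 h, by 0.20 ± 0.06 in TTP-KO (adjusted p = 0.00498) and 0.21 ± 0.06 in WT cells (adjusted p = 0.00297). The TTP-KO call at 4 h ended without TTP-KO 4 h replicate 3 (adjusted p = 0.058), and library totals ended both 4 h calls and the TTP-KO call at 2 h. Syvn1 (HRD1), that ligase itself, was higher at 4 h by 0.31 ± 0.09 in TTP-KO (adjusted p = 0.00539) and 0.28 ± 0.08 in WT cells (adjusted p = 0.00921), which library totals ended. Edem1, which extracts misfolded glycoproteins from the folding cycle, was higher at 4 h by 0.15 ± 0.05 in TTP-KO (adjusted p = 0.0114) and 0.13 ± 0.05 in WT cells (adjusted p = 0.0343), and library totals ended both calls. The TTP-KO call of Edem1 ended without TTP-KO 4 h replicate 2 (adjusted p = 0.0612), its WT call without WT control replicate 1 (adjusted p = 0.0944), WT control replicate 2 (0.0709), WT 4 h replicate 2 (0.0905) or WT 4 h replicate 3 (0.137), and its WT call between 4 h and 2 h without any library but WT TNP-OVA 4 h replicate 1 (highest adjusted p = 0.113, without WT TNP-OVA 2 h replicate 3).

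**Figure D2:**
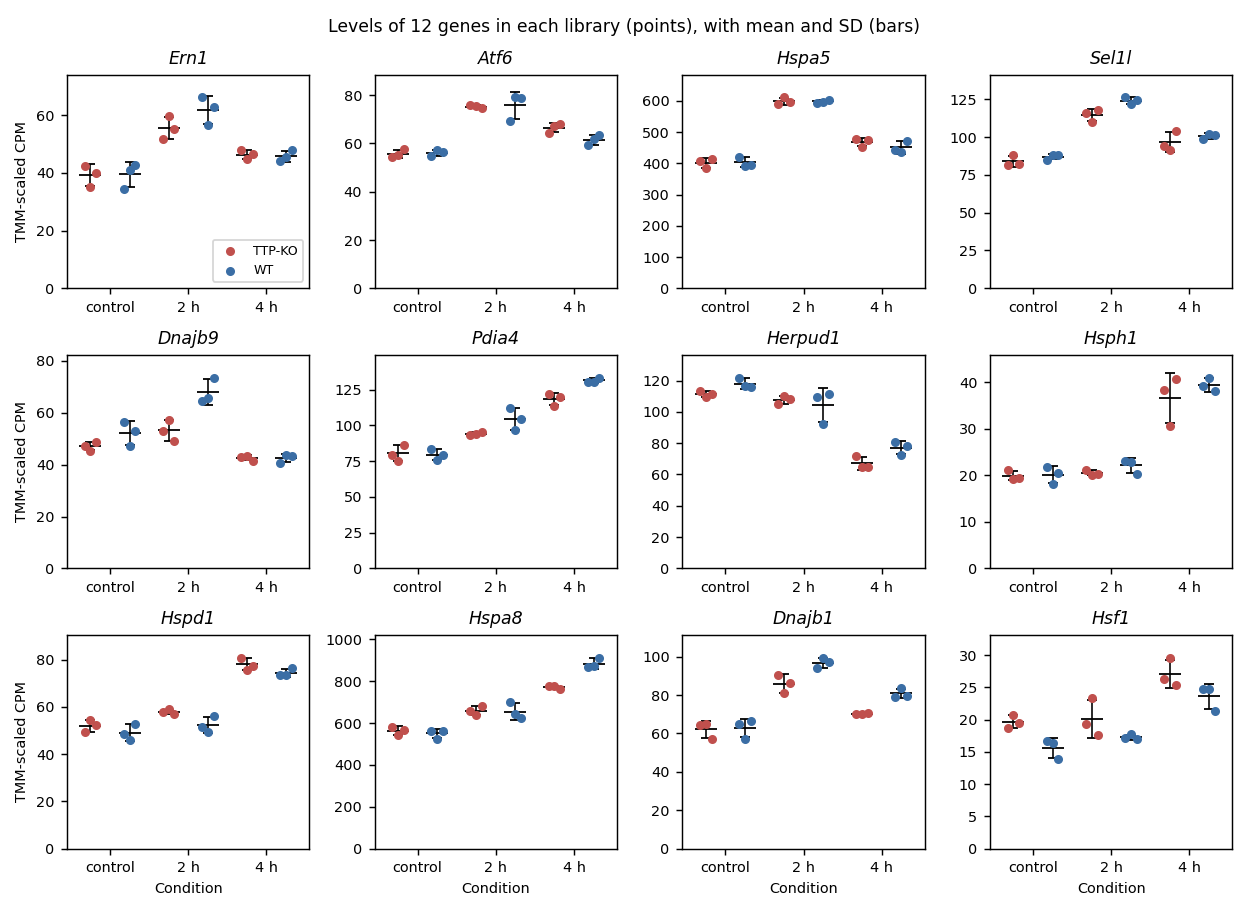
Level of 12 genes in each library (points, TMM-scaled CPM, axes from 0) with the group mean (long bar) and SD (whiskers), 3 libraries a group, TTP-KO in red and WT in blue. Ern1, Atf6, Hspa5 and Sel1l peak at 2 h, and Pdia4, Hsph1, Hspd1, Hspa8 and Hsf1 stand highest at 4 h; with library totals in place of TMM the 4 h level of Atf6 in TTP-KO cells was not below its 2 h level.

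Hsf1, the master factor of the heat shock response, passed as higher at 4 h and did not pass at 2 h. It had 18.7, 20.7 and 19.5 CPM in control, 19.2, 23.4 and 17.6 CPM at 2 h, and 26.2, 29.6 and 25.4 CPM at 4 h in TTP-KO cells. WT cells had 16.6, 16.4 and 13.9 CPM in control, 17.2, 17.7 and 17.0 CPM at 2 h, and 24.7, 24.7 and 21.4 CPM at 4 h. All 4 h libraries lay above all control and 2 h libraries of their genotype. In WT cells every 2 h library also lay above every control, while in TTP-KO cells control and 2 h overlapped. The log2 fold change at 4 h was 0.45 ± 0.11 in TTP-KO (adjusted p = 0.00165) and 0.60 ± 0.11 in WT cells (adjusted p = 9.1e-05), and at 2 h 0.03 ± 0.12 (adjusted p = 0.873) and 0.15 ± 0.12 (adjusted p = 0.378). Between 4 h and 2 h it was 0.42 ± 0.11 in TTP-KO (adjusted p = 0.00459) and 0.45 ± 0.11 in WT cells (adjusted p = 0.00305).

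The 15 heat shock genes, 14 of them tested, included no decrease against control that passed on TMM scaling. Among their 2 h calls, library totals turned the directions of Hspa8, Hsp90ab1 and Hspa9 in both genotypes. Heat shock genes without a 2 h call on TMM scaling are not listed as turned. Of the 14, 8 were higher at 2 h in each genotype, beside 17.8% of all genes in each. At 4 h 11 were higher in each genotype, beside 18.3% of all genes in TTP-KO and 19.6% in WT cells. With library totals the 2 h increase held for Hspa4 and Dnaja1 in TTP-KO cells and for Hspa4, Dnaja1 and Dnajb1 in WT cells. The 2 h calls of Bag3 and Hsp90aa1 in both genotypes and of Dnajb1 in TTP-KO cells ended. The median log2 fold change of the 14 was 0.256 in TTP-KO and 0.268 in WT cells at 2 h and 0.437 and 0.498 at 4 h, in the same order of genotypes. The 21 ER genes had medians of 0.097 in TTP-KO and 0.121 in WT cells at 2 h and 0.140 and 0.133 at 4 h. Over all genes tested the medians were -0.029 and -0.047 at 2 h and 0.011 and -0.007 at 4 h, in the same order.

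Hsph1 (Hsp105), an Hsp110 chaperone and nucleotide exchange factor of Hsp70, had the largest increase at 4 h among those of the 35 that passed, in both genotypes. It had 21.0, 19.2 and 19.5 CPM in control, 21.2, 20.1 and 20.4 CPM at 2 h, and 38.4, 30.5 and 40.8 CPM at 4 h in TTP-KO cells. The WT libraries had 21.7, 18.1 and 20.5 CPM in control, 23.1, 22.9 and 20.4 CPM at 2 h, and 39.2, 41.0 and 38.0 CPM at 4 h. Control and 2 h libraries overlapped, and every 4 h library lay above them, with TTP-KO 4 h replicate 2 the lowest of the 4 h libraries. Its log2 fold change at 4 h was 0.89 ± 0.10 in TTP-KO (adjusted p = 5.3e-08) and 0.96 ± 0.10 in WT cells (adjusted p = 8.42e-09). At 2 h it was 0.05 ± 0.11 (adjusted p = 0.776) and 0.13 ± 0.11 (adjusted p = 0.418). Between 4 h and 2 h it was 0.84 ± 0.10 in TTP-KO (adjusted p = 3.23e-07) and 0.84 ± 0.10 in WT cells (adjusted p = 2.14e-07).

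Hspa8 (Hsc70), the constitutive Hsp70 of the cytosol, had 582, 542 and 567 CPM in control, 656, 638 and 681 CPM at 2 h, and 777, 777 and 765 CPM at 4 h in TTP-KO cells. In WT it stood at 563, 526 and 563 CPM in control, 699, 643 and 622 CPM at 2 h, and 867, 874 and 913 CPM at 4 h. The 3 conditions did not overlap within either genotype, and at 4 h every TTP-KO library lay below every WT library. On the log2 scale its fold change at 4 h was 0.46 ± 0.04 in TTP-KO (adjusted p = 1.26e-09) and 0.68 ± 0.04 in WT cells (adjusted p = 2.48e-13). At 2 h it was 0.22 ± 0.04 in TTP-KO (adjusted p = 0.00013) and 0.25 ± 0.04 in WT cells (adjusted p = 3.07e-05), and both directions turned with library totals.

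Hspa4 (Apg-2), an Hsp110 relative of Hsph1, was higher at both times. It had 99.9, 106 and 104 CPM in control, 144, 148 and 146 CPM at 2 h, and 141, 148 and 151 CPM at 4 h in TTP-KO cells. In WT cells it had 111, 104 and 115 CPM in control, 156, 148 and 156 CPM at 2 h, and 134, 141 and 138 CPM at 4 h. Every stimulated library lay above every control of its genotype. Its change in log2 units was 0.50 ± 0.05 at 2 h and 0.50 ± 0.05 at 4 h (adjusted p = 4.45e-09 and 4.15e-09) in TTP-KO cells, and 0.48 ± 0.05 at 2 h and 0.32 ± 0.05 at 4 h (adjusted p = 8.52e-09 and 6.54e-06) in WT cells. Between 4 h and 2 h it was 0.00 ± 0.05 in TTP-KO (adjusted p = 0.97) and -0.16 ± 0.05 in WT cells (adjusted p = 0.016), where the call ended without WT 4 h replicate 1 (adjusted p = 0.0745) and the direction turned with library totals.

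The J-domain cochaperones of cytosolic Hsp70 were higher at 2 h, in contrast with Hsph1. Dnaja1 had 73.0, 82.6 and 76.0 CPM in control, 118, 107 and 118 CPM at 2 h, and 112, 103 and 94.8 CPM at 4 h in TTP-KO cells. WT cells had 86.7, 77.4 and 79.5 CPM in control, 129, 127 and 119 CPM at 2 h, and 111, 113 and 128 CPM at 4 h. Stimulated libraries lay above controls at both times without overlap, and the 2 h and 4 h libraries overlapped. The log2 fold change of Dnaja1 was 0.57 ± 0.07 at 2 h and 0.42 ± 0.07 at 4 h (adjusted p = 1.9e-07 and 2.17e-05) in TTP-KO cells, and 0.62 ± 0.07 (adjusted p = 3.44e-08) and 0.53 ± 0.07 (adjusted p = 4.86e-07) in WT cells.

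Dnajb1 (Hsp40) had 64.5, 65.0 and 57.2 CPM in control, 90.6, 81.2 and 86.3 CPM at 2 h, and 70.2, 70.2 and 70.6 CPM at 4 h in TTP-KO cells. The WT libraries had 65.1, 57.3 and 66.3 CPM in control, 94.2, 99.5 and 97.1 CPM at 2 h, and 79.2, 83.7 and 79.7 CPM at 4 h. The 4 h libraries lay between control and 2 h in both genotypes. The log2 fold change at 2 h was 0.47 ± 0.07 in TTP-KO (adjusted p = 1.81e-06, ended by library totals) and 0.62 ± 0.07 in WT cells (adjusted p = 1.26e-08), and at 4 h 0.18 ± 0.07 (adjusted p = 0.0373) and 0.36 ± 0.07 (adjusted p = 7.06e-05). The TTP-KO call at 4 h ended without TTP-KO control replicate 3 (adjusted p = 0.236), TTP-KO 4 h replicate 1 (0.076), TTP-KO 4 h replicate 2 (0.07) or TTP-KO 4 h replicate 3 (0.079), with DESeq2 and with library totals. Bag3, a cochaperone that links Hsp70 to autophagy, was higher at 2 h by 0.39 ± 0.10 in TTP-KO (adjusted p = 0.00458) and 0.42 ± 0.10 in WT cells (adjusted p = 0.00218), calls that library totals ended. At 4 h it did not pass in TTP-KO (0.11 ± 0.10, adjusted p = 0.472) or WT cells (0.22 ± 0.10, adjusted p = 0.099). The 2 h call in TTP-KO cells ended without TTP-KO control replicate 3 (adjusted p = 0.0547) or TTP-KO 2 h replicate 3 (0.0504), and the call between 4 h and 2 h without TTP-KO 2 h replicate 3 (adjusted p = 0.202), TTP-KO 4 h replicate 1 (0.0742) or TTP-KO 4 h replicate 3 (0.165) and with library totals.

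Both cytosolic Hsp90 genes were higher at 2 h and 4 h in both genotypes. Hsp90ab1 (Hsp90β, the constitutive form) had 506, 493 and 500.3 CPM in control, 627, 606 and 598 CPM at 2 h, and 630.3, 636 and 625 CPM at 4 h in TTP-KO cells. In WT it stood at 457, 494 and 474 CPM in control, 587, 553 and 580.0 CPM at 2 h, and 604, 614 and 625 CPM at 4 h. Every stimulated library lay above every control of its genotype. Its log2 fold change was 0.29 ± 0.04 at 2 h and 0.33 ± 0.04 at 4 h (adjusted p = 3.91e-07 and 3.36e-08) in TTP-KO cells, and 0.27 ± 0.04 (adjusted p = 1.14e-06) and 0.37 ± 0.04 (adjusted p = 4.36e-09) in WT cells, with both 2 h directions turned by library totals. The WT call between 4 h and 2 h (0.10 ± 0.04, adjusted p = 0.0438) ended without any library but WT TNP-OVA 4 h replicate 1 (highest adjusted p = 0.24, without WT TNP-OVA 2 h replicate 2) and with the replicate number as a block (adjusted p = 0.0504). Hsp90aa1 (Hsp90α, the inducible form) was higher by 0.43 ± 0.05 and 0.35 ± 0.05 at 2 h and 4 h in TTP-KO cells and by 0.37 ± 0.05 and 0.42 ± 0.05 in WT cells (adjusted p between 2.86e-08 and 1.19e-06), and library totals ended the 2 h calls.

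The mitochondrial chaperonin genes passed as higher at 4 h and did not pass at 2 h. Hspd1 (Hsp60) had 49.2, 54.2 and 52.3 CPM in control, 57.7, 58.9 and 56.9 CPM at 2 h, and 80.8, 75.8 and 77.5 CPM at 4 h in TTP-KO cells. In WT cells it had 48.5, 46.0 and 52.9 CPM in control, 51.3, 49.5 and 56.1 CPM at 2 h, and 73.3, 73.3 and 76.3 CPM at 4 h. Each 4 h library lay above all control and 2 h libraries of its genotype. In TTP-KO cells every 2 h library also lay above every control, while in WT cells control and 2 h overlapped. On the log2 scale its fold change at 4 h was 0.59 ± 0.07 in TTP-KO (adjusted p = 5.69e-08) and 0.59 ± 0.07 in WT cells (adjusted p = 4.66e-08), and at 2 h 0.15 ± 0.07 (adjusted p = 0.0936) and 0.09 ± 0.07 (adjusted p = 0.394). Its cochaperonin Hspe1 (Hsp10) had 28.5, 24.3 and 21.9 CPM in control, 29.8, 27.7 and 25.4 CPM at 2 h, and 40.8, 34.3 and 35.0 CPM at 4 h in TTP-KO cells. WT cells had 23.5, 21.3 and 26.6 CPM in control, 22.4, 28.5 and 23.6 CPM at 2 h, and 32.7, 32.0 and 35.1 CPM at 4 h. Here too the 4 h libraries stood above the others, while control and 2 h libraries overlapped. The log2 fold change of Hspe1 at 4 h was 0.57 ± 0.11 in TTP-KO (adjusted p = 0.000113) and 0.47 ± 0.11 in WT cells (adjusted p = 0.00102), and at 2 h 0.16 ± 0.12 (adjusted p = 0.308) and 0.05 ± 0.12 (adjusted p = 0.772). The WT call of Hspe1 between 4 h and 2 h ended without WT 2 h replicate 1 (adjusted p = 0.0514).

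Hspd1 and Hspe1 lie head to head on chromosome 1 and share the stretch between them, which is why it is shown. The starts of Hspd1 on the minus strand lie either 216 bases upstream of the Hspe1 start on the plus strand, or 95 bases past it, in which case the transcripts overlap. How strand was handled in counting is not stated, so reads of the overlap cannot be assigned with certainty. The window is chr1:55088053-55088082 (plus strand, GRCm38.p6, RefSeq), from 95 to 66 bases before the Hspe1 start, and capitals mark the fixed letters of heat shock elements (GAA, TTC and GAA with 2 bases between each) on either strand. It holds 2 matches that overlap each other, from 89 to 77 and from 84 to 72 bases before the start.
Hspe1: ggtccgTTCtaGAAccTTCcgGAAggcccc

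The heat shock element was found in the promoters of 3 of the 28 genes (10.7%), those of Hspd1, Hspe1 and, after its start, Hsph1, beside 0.662% of all genes with a promoter. The matches of Hspd1 and Hspe1 are the same bases, read from opposite strands of the shared stretch, and not separate sites. All 3 genes with the element passed as higher at 4 h and did not pass at 2 h in both genotypes. The same held for Dnajb11, Creld2, Edem1 and Syvn1, whose promoters held no match, so this timing is not particular to genes with the element. Hspa9 (mortalin), the Hsp70 of mitochondria, was higher at 2 h by 0.30 ± 0.06 in TTP-KO (adjusted p = 0.000527) and 0.27 ± 0.07 in WT cells (adjusted p = 0.00183), directions that turned with library totals. At 4 h it was higher by 0.31 ± 0.06 in TTP-KO (adjusted p = 0.000277) and 0.33 ± 0.06 in WT cells (adjusted p = 0.000126).

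The classic stress-inducible Hsp70 genes, Hspa1a and Hspa1b, were scarce and did not pass in any of the 12 comparisons over the 18 libraries. They are near-identical copies, so how reads were split between them is uncertain. At 4 h Hspa1a had 55.6, 27.0 and 63.0 estimated counts in TTP-KO and 16.4, 98.3 and 106.8 in WT libraries, while Hspa1b had 8.84, 10.3 and 14.6 counts in TTP-KO and 55.2, 38.1 and 8.76 in WT libraries. The libraries of WT cells at 4 h differed among themselves in which copy was counted. Summed, the pair had a log2 fold change at 4 h of 0.31 ± 0.40 in TTP-KO (edgeR adjusted p = 0.597) and 0.93 ± 0.38 in WT cells (adjusted p = 0.0701). For Hspa1a the WT calls at 4 h turned on 1 library: without WT 4 h replicate 1 it passed against control (1.22, adjusted p = 0.0153) and against 2 h (1.15, adjusted p = 0.0295). Hspa1b passed at 4 h in WT cells without the filter on low counts (1.47, adjusted p = 0.0164). Hspb1 (Hsp25), a small heat shock protein, had between 0 and 15.7 estimated counts, too few for the filter. It had 3.13, 15.7 and 9.43 counts in TTP-KO controls and 0 in each WT control, 6.29, 0 and 9.44 counts in TTP-KO and 0 in each WT library at 2 h, and 2.61, 6.28 and 9.44 counts in TTP-KO and 3.15, 6.29 and 0 in WT libraries at 4 h. Tested without the filter, Hspb1 passed between TTP-KO and WT cells in control (edgeR adjusted p = 0.00181) and at 2 h (0.0178) and between 4 h and control in WT cells (0.0413). Its counts are fractional, so they hold reads shared out between matching sequences, and which gene those reads came from is uncertain.

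The changes between 4 h and 2 h divide the genes by time. In TTP-KO cells 7 genes were higher and 12 lower at 4 h than at 2 h, beside 30.8% of all genes (14.6% higher, 16.2% lower). In WT cells 10 were higher and 9 lower, beside 31.1% of all genes (15.2% higher, 15.9% lower). Of the 7 higher in TTP-KO cells 6 were also among the 10 in WT cells (85.7% and 60.0% of the lists, beside 62.4% and 59.8% over all genes tested), namely Pdia4, Hsf1, Hspa8, Hsph1, Hspd1 and Hspe1. Of the 12 lower in TTP-KO cells 8 were also among the 9 in WT cells (66.7% and 88.9%, beside 73.8% and 75.2%). Ern1, Atf6 and Hspa5 were lower at 4 h than at 2 h in both genotypes, Xbp1 passed in TTP-KO cells alone, and the chaperonin pair and Hsf1 were higher in both. With library totals the decrease held for Hspa5 in both genotypes and for Ern1 in WT cells. Under that scaling the splits became 19 higher and 2 lower in TTP-KO cells and 21 higher and 4 lower in WT cells, the median of all genes lying at 0.227 and 0.219.

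**Figure D3:**
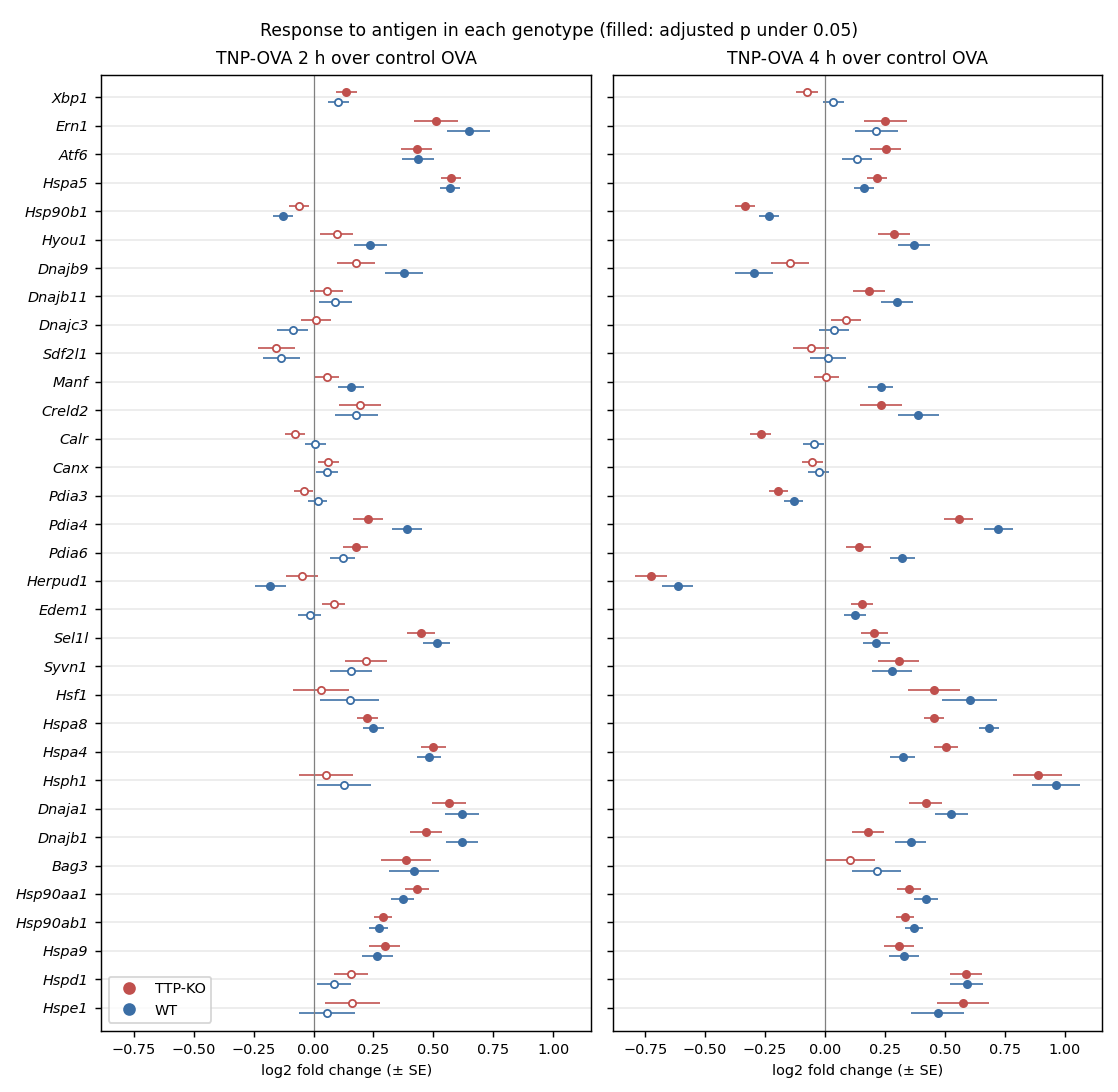
Log2 fold change with its standard error of 33 genes at 2 h (left) and 4 h (right) of TNP-OVA over control, TTP-KO in red above WT in blue, filled where the adjusted p is under 0.05. The 2 genotypes lie close for most genes. Hsph1, Pdia4, Hspd1 and Hspe1 stand to the right of 0 at 4 h while Herpud1 stands to the left. Library totals would move the 2 h points left. Among the filled 2 h points they would turn Xbp1, Pdia4, Pdia6, Hspa8, Hsp90ab1 and Hspa9 in TTP-KO cells. In WT cells they would turn the filled 2 h points of Hyou1, Manf, Hspa8, Hsp90ab1 and Hspa9. Turns of open points are not listed.

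The responses of the genotypes share no library and can be set side by side. At 2 h, 13 genes were higher in both genotypes, 86.7% of the 15 higher in TTP-KO and 81.2% of the 16 higher in WT cells, beside 81.6% and 81.6% over all genes tested. At 4 h, 20 genes were higher in both, 90.9% of the 22 in TTP-KO and 95.2% of the 21 in WT cells, beside 76.1% and 71.1% over all genes. Of 4 genes lower at 4 h in each genotype 3 were the same (75.0% of each list, beside 76.1% of TTP-KO and 69.1% of WT genes over all genes tested): Hsp90b1, Pdia3 and Herpud1. Calr was the fourth in TTP-KO cells and Dnajb9 the fourth in WT cells.

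Between TTP-KO and WT cells given control OVA none of the 35 genes passed in edgeR or in DESeq2, beside 1.65% of all genes in edgeR (0.412% higher, 1.24% lower). At an unadjusted p under 0.05 there were 6 of the 35 (17.1%), beside 12.9% of all genes. By the same measure there were 7 (20%) at 2 h, beside 14.9%, and 8 (22.9%) at 4 h, beside 17%. At 2 h Pdia6 was higher and Dnajb9 lower in TTP-KO cells, 2 of 35, beside 2.79% of all genes (0.909% higher, 1.88% lower). At 4 h Hspa8 was lower, 1 of 35, beside 5.22% of all genes (1.83% higher, 3.40% lower). The shares past the adjusted threshold do not set the folding genes apart from the rest of the genes.

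At 2 h Dnajb9, whose values by library are given above, was at 53.2 ± 3.99 CPM in TTP-KO and 68.0 ± 4.92 CPM in WT cells (SD, n = 3 each), with no overlap and a log2 difference of -0.35 ± 0.08 (edgeR adjusted p = 0.0104). The call ended without WT 2 h replicate 3 (adjusted p = 0.0772) or TTP-KO 2 h replicate 3 (0.0591). In control cells the difference was -0.15 ± 0.08 (adjusted p = 0.436) and at 4 h it was below 0.01 in size (adjusted p = 0.997). Pdia6 at 2 h was at 147.4 ± 7.87 CPM in TTP-KO and 128.2 ± 4.88 CPM in WT cells, again without overlap, with a log2 difference of 0.20 ± 0.05 (edgeR adjusted p = 0.0339). In control cells the difference was 0.15 ± 0.05 (adjusted p = 0.184), and there too every TTP-KO library lay above every WT library. The 2 h call of Pdia6 ended without WT 2 h replicate 2 (adjusted p = 0.123), WT 2 h replicate 3 (0.157), TTP-KO 2 h replicate 1 (0.0585) or TTP-KO 2 h replicate 3 (0.239), with DESeq2 (adjusted p = 0.069), without the filter (0.0816) and with only the groups compared (0.0724).

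Hspa8 at 4 h was at 773 ± 6.79 CPM in TTP-KO and 884.6 ± 24.7 CPM in WT cells (SD, n = 3 each), a log2 difference of -0.19 ± 0.04 (edgeR adjusted p = 0.00463). This call held whichever library was left out and under every scaling tried, with DESeq2 included. In control cells and at 2 h the differences were 0.03 ± 0.04 and 0.01 ± 0.04 (adjusted p = 0.822 and 0.953). Every TTP-KO control library lay above every WT control library in Hsf1, whose log2 difference was 0.34 ± 0.12 and did not pass (adjusted p = 0.164).

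Markers of other cells differed between the genotypes in the same libraries. Summed over 9 neutrophil markers, all tested, the level was 1903 to 2285 CPM in TTP-KO and 1046 to 1342 CPM in WT libraries at 2 h, and 1667 to 1903 CPM and 845.1 to 941.1 CPM at 4 h. Of these markers Ly6g alone went the other way, averaging 2.258 CPM in TTP-KO and 4.335 CPM in WT cells at 2 h. Its 4 h averages were 1.373 and 2.122 CPM. Monocyte and macrophage markers (7 of 7 tested) summed at 4 h to 7522 to 8128 CPM in TTP-KO and 6118 to 6431 CPM in WT libraries. Lyz2 gave most of that sum (averages of 6346 CPM in TTP-KO and 5023 CPM in WT cells), while Adgre1 averaged 109.7 and 110.2 CPM. Dendritic cell and class II markers (4 of 7 tested) summed at 4 h to 2526 to 2674 CPM in TTP-KO and 4038 to 4184 CPM in WT libraries, mast cell markers (4 of 6) to 120.0 to 121.8 and 199 to 209.6 CPM, and B cell markers (5 of 5) to 25.0 to 27.7 and 50.02 to 58.6 CPM. Plasma cell markers (5 of 6), of interest because those cells carry a large ER, overlapped, at 100.3 to 120.7 CPM in TTP-KO and 102 to 136.3 CPM in WT libraries. The dendritic cell and class II sum came almost wholly from Cd74, H2-Aa, H2-Ab1 and H2-Eb1. No tested marker was at 0 in every library. Their part in the differences of Dnajb9, Pdia6 and Hspa8 was not tested.

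**Figure D4:**
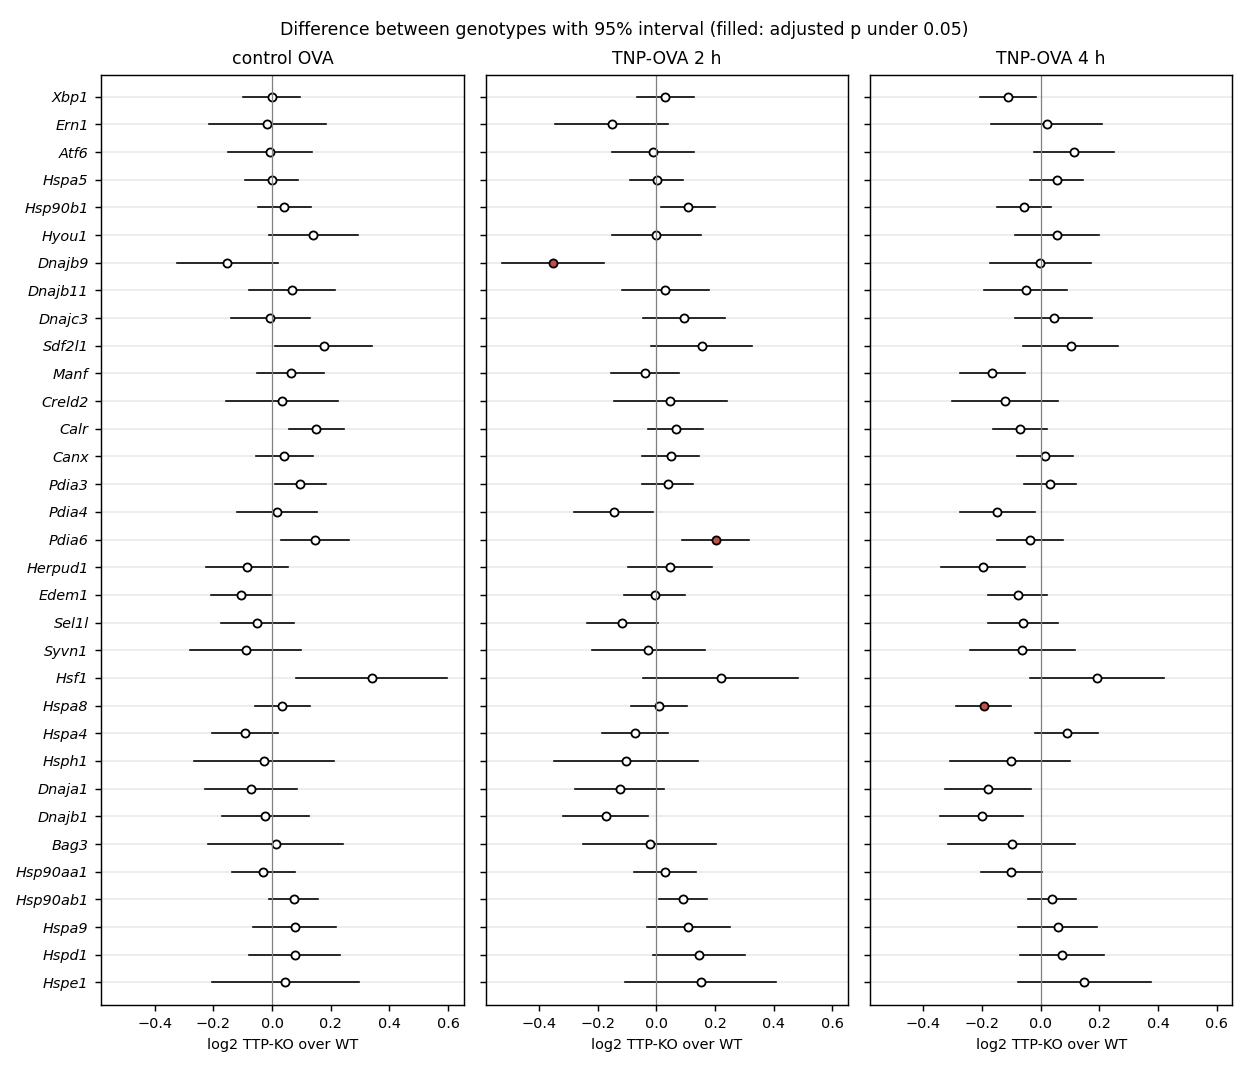
Log2 difference, TTP-KO over WT, with its 95% interval for 33 genes in control, at 2 h and at 4 h, filled where the adjusted p is under 0.05. Dnajb9 and Pdia6 at 2 h and Hspa8 at 4 h are filled, and most other intervals span 0.

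The difference between the genotypes' responses was also tested itself. No gene of the 35 passed in the 3 interactions in edgeR, beside 0.0497% of all genes for 2 h against control (0.0355% higher, 0.0142% lower), 0.689% for 4 h against control (0.277% higher, 0.412% lower) and 0.313% for 4 h against 2 h (0.0924% higher, 0.220% lower). At an unadjusted p under 0.05 there were 0, 5 and 8 of the 35 (0%, 14.3% and 22.9%), beside 6.61%, 10.6% and 9.13% of all genes. DESeq2 called 0, 2 (Calr and Hspa8) and 0. For Hspa8 the response at 4 h in TTP-KO cells less that in WT cells was -0.23 ± 0.06 on the log2 scale (edgeR adjusted p = 0.0849), and for Calr the value was -0.22 ± 0.06 (adjusted p = 0.0976). For Dnajb9 the difference in the response at 2 h was -0.20 ± 0.11 (adjusted p = 0.796). That Hyou1, Dnajb9 and Manf passed as higher at 2 h in WT and not in TTP-KO cells is therefore not shown to be a difference between the genotypes' responses. The level of Dnajb9 at 2 h did differ between the genotypes, as given above.

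Genes of the same pathways outside the 36 were counted from 7 lists, 119 genes tested in all. At 2 h 25 were higher and 16 lower in TTP-KO and 26 higher and 18 lower in WT cells, and at 4 h 43 and 11 in TTP-KO and 48 and 11 in WT cells, to be read beside the shares of all genes given above. With library totals the 2 h splits became 9 higher and 72 lower in TTP-KO and 9 and 74 in WT cells, and the 4 h splits 24 and 27 in TTP-KO and 29 and 23 in WT cells.

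Of 15 other ER folding genes, 3 were higher and 2 lower at 2 h in TTP-KO and 3 and 3 in WT cells, and at 4 h 5 and 1 in TTP-KO and 5 and 2 in WT cells. Ero1a, the oxidase that recharges disulfide isomerases, had the largest increase at 2 h (1.41 ± 0.04 in TTP-KO and 1.51 ± 0.04 in WT cells). Of 13 other regulators of the unfolded protein response, 6 were higher and 5 lower at 2 h in TTP-KO and 5 and 5 in WT cells, and at 4 h 5 and 2 in each genotype. At 2 h they ranged from Creb3l2, an ER-bound factor related to ATF6 (1.25 ± 0.05 in TTP-KO, 1.33 ± 0.05 in WT), to Crebrf (-1.28 ± 0.09 and -1.34 ± 0.09, in the same order). Ddit3 (CHOP), a factor of the PERK arm, was lower at 4 h, at -0.77 ± 0.08 in TTP-KO and -0.79 ± 0.08 in WT cells. Ppp1r15a (GADD34), which reverses PERK's phosphorylation of eIF2α, was higher at 2 h by 1.20 ± 0.07 in TTP-KO and 0.79 ± 0.07 in WT cells. Its control level was lower in TTP-KO than in WT cells (-0.30 ± 0.07, adjusted p = 0.0355), and the difference between the responses did not pass (0.41 ± 0.10, adjusted p = 0.249).

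Of 18 other genes of ER-associated degradation, 4 were higher and 3 lower at 2 h in TTP-KO and 5 and 4 in WT cells, and at 4 h 5 and 2 in TTP-KO and 6 and 3 in WT cells. Edem2 and Edem3, relatives of Edem1, were among the decreases at 2 h (Edem3 -0.72 ± 0.10 in TTP-KO and -0.81 ± 0.10 in WT). Of 21 translocon and transport genes, 3 were higher and 2 lower at 2 h in TTP-KO and 3 and 3 in WT cells, and at 4 h 7 and 4 in TTP-KO and 6 and 2 in WT cells. Of 27 other cytosolic chaperones and cochaperones, 9 were higher and 2 lower at 2 h in TTP-KO and 7 and 2 in WT cells, and at 4 h 10 and 1 in TTP-KO and 12 and 1 in WT cells. Hspa4l, a relative of Hspa4, was higher at 2 h (0.96 ± 0.07 in TTP-KO, 0.93 ± 0.07 in WT) and lower at 4 h (-0.48 ± 0.08 and -0.46 ± 0.08). Of 14 genes of the TRiC chaperonin and prefoldin, which fold actin and tubulin, 0 were higher and 2 lower at 2 h in TTP-KO and 1 and 0 in WT cells, and at 4 h 5 and 1 in TTP-KO and 9 and 1 in WT cells, with Cct3 at 0.53 ± 0.07 and 0.74 ± 0.07. Of 11 other mitochondrial chaperones and proteases, 0 were higher and 0 lower at 2 h in TTP-KO and 2 and 1 in WT cells, and at 4 h 6 and 0 in TTP-KO and 5 and 0 in WT cells, with Dnaja3, a mitochondrial Hsp40, at 0.99 ± 0.15 and 0.66 ± 0.15. The changes against control named from these lists passed in edgeR, with adjusted p from 1.27e-22 to 0.000666.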

How the data were processed

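RNA from 18 libraries, 3 in each of 6 groups, was quantified by the authors as estimated counts per gene, deposited without normalization in 1 table. Per the submitters' processing notes the tools named were RSEM 1.3.1, R 4.4.0, R 4.4.1, STAR 2.7.10a and cutadapt 3.5, with the build GRCm39. Their roles, the annotation release and the strand setting are not given in the sources used here. Table columns named as unstimulated were taken as the control OVA libraries. Reads that fit several genes are shared out, so 16 of the 36 genes had fractional counts (further than 0.005 from a whole number).

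Counts were rounded and fitted in R 4.3.3 with edgeR 4.0.16 (filterByExpr, TMM, robust quasi-likelihood test, a mean for each group, 12 residual degrees of freedom) on all 14076 genes that passed the filter, which held 99.8% of the counts, with Benjamini-Hochberg adjustment over all of them and a threshold of 0.05. The common biological coefficient of variation was 0.0905. With 3 libraries on each side, an exact permutation test of 1 gene reaches no lower than p = 0.1, and none was used. Intervals are at 95%, from a t distribution with 12 degrees of freedom. Libraries within a group were compared pairwise and none repeated another. On simulated counts for the control comparison between genotypes, the fit over 14076 genes recovered 58 of 100 genes changed 1.5-fold and 81 of 100 changed 2-fold, with 3 others called.

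The 36 genes, the pathway and marker lists and the promoters shown were chosen with earlier results of these data known. Values by library are given for the 4 genes with the largest change past the threshold in each of the 6 comparisons of conditions, for every gene past it between genotypes, for Xbp1, Ern1, Atf6 and Hsf1, and, in a role with no such gene, for that with the smallest p. From the other pathway lists up to 3 increases and 3 decreases against control could be named. Alternatives were RLE scaling, library totals, no filter, DESeq2 1.42.0, only the groups compared, the replicate number as a block, and leaving out each library. Motifs were searched on both strands of RefSeq promoters (GRCm38.p6), and no coordinate of the count table's build was used.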

Additional observations from a re-analysis of the deposited data

How the results depend on the processing

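Over all comparisons 125 calls of the 35 genes were made, of which 62 were kept under every alternative and 28 ended when some 1 library was left out. RLE scaling ended 5, no filter on low counts 16, DESeq2 12, only the groups compared 9, and library totals ended 37 and reversed 16. Reversed with library totals at 2 h were, in TTP-KO cells, Xbp1 (-0.200), Pdia4 (-0.111), Pdia6 (-0.160), Hspa8 (-0.113), Hsp90ab1 (-0.0486) and Hspa9 (-0.0395) and, in WT cells, Hyou1 (-0.0879), Manf (-0.168), Hspa8 (-0.0752), Hsp90ab1 (-0.0535) and Hspa9 (-0.0602). Reversed between 4 h and 2 h were Atf6 (0.0250), Calr (0.0108) and Pdia3 (0.0482) in TTP-KO cells and Pdia3 (0.0535) and Hspa4 (0.0420) in WT cells. None of these values between 4 h and 2 h passed (edgeR adjusted p from 0.325 to 0.866). At 2 h those of Xbp1, Pdia6 and Hspa8 in TTP-KO and of Manf in WT cells passed (edgeR adjusted p from 0.000342 to 0.0372). The other 2 h values did not pass (0.147 to 0.640), so no opposite change was shown for them. The count between genotypes in control, 0 in edgeR, was 1 with library totals (Calr), 1 without the filter (Hspb1) and 1 with the replicate number as a block (Calr), and 0 to 1 with a library left out. At 2 h the 2 calls became 1 with DESeq2 and 1 with only the groups compared, and 0 to 3 with a library left out. At 4 h the 1 call became 2 with RLE scaling, 2 with DESeq2 (Manf added in both) and 2 with only the groups compared (Dnajb1 added), and 1 to 2 with a library left out. DESeq2 called 2 genes in the interaction for 4 h against control. The labels do not say whether libraries with the same replicate number are paired. Over 45 pairs of same-numbered libraries the correlation of deviations ran from -0.081 to 0.041, and 4 of 18 libraries correlated best with their own number. These values show no strong effect shared by number, but cannot tell whether same-numbered libraries have a common origin. The replicate block ended 1 of the 125 calls, Hsp90ab1 between 4 h and 2 h in WT cells. The cause of these changes was not tested. Low counts limit Hspa1a, Hspa1b and Hspb1, which passed only when the filter was dropped or 1 library was left out.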
